A study of Mus musculus with 28 samples.

Results

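The genes described here encode phase II conjugation enzymes of the mouse, that is glutathione S-transferases (Gst), UDP-glucuronosyltransferases (Ugt) and sulfotransferases (Sult). Members were chosen by symbol, as genes of the alpha, kappa, mu, omega, pi, theta and zeta Gst classes, of the Ugt1a, Ugt2 and Ugt3 groups, or of the Sult group, with entries named as pseudogenes left out. They were 64 of the 35858 gene symbols in the first table used, and 63 of them were also in the other table, which lacked Ugt1a8. By class they comprised 22 Gst, 21 Ugt and 21 Sult genes.

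The samples came from mice that carry human APOBEC3B (A3B), a cytidine deaminase, as a doxycycline-inducible transgene fused to turbo GFP, with the reverse tetracycline transactivator rtTA driven by the CAG promoter, which is active in most tissues. A3B mice held both transgenes, and the controls are the mice titled as such. By the labels and the methods of the study, doxycycline was given to controls as well, at 625 ppm in the food, while a legend of the study describes 2 pooled control animals as without it, so the treatment of the set 2 controls is uncertain. Set 2 comprised 6 A3B and 2 control livers and 6 A3B and 2 control pancreases, all labelled with 10 days of doxycycline. Set 1 comprised 3 A3B and 3 control livers and 3 A3B and 3 control lungs. In set 1 the controls were labelled with 15 days, A3B livers 23 and 28 with 14 days, and the other A3B samples with 10 days, so time and group cannot be told apart there. The labels give the A3B transgene alone for most controls. Exceptions were control liver 11 of set 1, labelled with both transgenes, control lung 87, labelled with the driver alone, and control pancreases 45 and 168, labelled with both. A3B pancreases 44 and 137 were labelled with the A3B transgene alone. The livers of mice 44 and 137 were labelled with both transgenes, and those of controls 45 and 168 with the A3B transgene alone. Titles decided the group wherever they went against the genotype. The level of the transgene itself was not analysed here.

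Phase II enzymes attach a polar group to a drug, hormone, bile pigment or reactive metabolite so that it can be excreted. Gst enzymes use glutathione, Ugt enzymes use UDP-glucuronic acid and Sult enzymes use the sulfate donor PAPS. The liver is the main site of all 3 reactions, and many of the genes are known to respond to the antioxidant sensor Nrf2 (Nfe2l2), to the aryl hydrocarbon receptor and to the nuclear receptors CAR and PXR.

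The promoter windows of 5 genes on which the liver and pancreas results turn are shown first. Each window runs from 250 bases before to 50 bases after the gene's start in RefSeq (GRCm38.p6), on the strand of the gene, for Sult1e1 (chr5:87591562-87591861, minus strand), Gsta1 (chr9:78230419-78230718, plus strand), Gsta2 (chr9:78347096-78347395, minus strand), Gsta3 (chr1:21240335-21240634, plus strand) and Gstm6 (chr3:107953417-107953716, minus strand). For Gsta2 and Gstm6 this start lies several kilobases from the outermost start of the GENCODE gene model (at 78355788 and 107943749). Other GENCODE transcripts of Gsta2 begin within its window, and none of Gstm6 does, so the Gstm6 window is not that of the transcripts counted. Capitals mark matches on either strand to TGACNNNGC, the core of the antioxidant response element, or to GCGTG, the core of the xenobiotic response element.
Sult1e1 promoter: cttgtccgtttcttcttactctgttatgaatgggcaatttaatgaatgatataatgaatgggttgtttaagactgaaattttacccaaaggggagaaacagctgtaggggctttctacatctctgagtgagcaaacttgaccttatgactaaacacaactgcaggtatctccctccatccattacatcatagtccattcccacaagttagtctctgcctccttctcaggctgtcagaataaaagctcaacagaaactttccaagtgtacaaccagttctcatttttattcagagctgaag
Gsta1 promoter: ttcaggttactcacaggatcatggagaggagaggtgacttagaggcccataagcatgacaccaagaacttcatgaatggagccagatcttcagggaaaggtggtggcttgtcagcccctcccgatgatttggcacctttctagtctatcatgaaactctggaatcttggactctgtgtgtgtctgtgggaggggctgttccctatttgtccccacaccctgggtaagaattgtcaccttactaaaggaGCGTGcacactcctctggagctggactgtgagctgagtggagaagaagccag
Gsta2 promoter: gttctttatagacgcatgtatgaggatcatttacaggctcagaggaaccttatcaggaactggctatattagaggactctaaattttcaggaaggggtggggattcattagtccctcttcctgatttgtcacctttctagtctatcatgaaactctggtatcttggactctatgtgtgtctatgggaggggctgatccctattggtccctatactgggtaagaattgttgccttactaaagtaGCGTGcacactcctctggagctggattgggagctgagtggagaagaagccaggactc
Gsta3 promoter: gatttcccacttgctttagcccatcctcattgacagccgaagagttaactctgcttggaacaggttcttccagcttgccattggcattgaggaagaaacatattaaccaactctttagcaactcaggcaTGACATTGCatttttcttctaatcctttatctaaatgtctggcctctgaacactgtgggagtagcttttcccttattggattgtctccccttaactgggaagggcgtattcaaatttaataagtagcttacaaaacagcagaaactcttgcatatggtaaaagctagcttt
Gstm6 promoter: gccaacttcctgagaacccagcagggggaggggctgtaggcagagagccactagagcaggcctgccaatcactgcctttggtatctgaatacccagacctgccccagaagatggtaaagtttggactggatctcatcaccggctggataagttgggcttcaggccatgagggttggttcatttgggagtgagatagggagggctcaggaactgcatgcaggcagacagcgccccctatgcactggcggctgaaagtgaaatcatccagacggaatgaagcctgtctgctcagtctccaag

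The windows of Gsta1 and Gsta2 each held 1 GCGTG match close to the start, and in a global alignment 238 of their 284 aligned bases were identical. The window of Gsta3 held 1 TGACNNNGC match, and those of Sult1e1 and Gstm6 held neither motif. RefSeq windows were found for 56 of the 64 members, which had 67 windows. TGACNNNGC was in 4.48% of the members' windows (Gsta3, Gstm5 and Gstm7) and in 12.4% of all 32851 windows. GCGTG was in 19.4% of the members' windows and in 32.4% of all windows. The motifs can overlap, as 1 pair of matches did in Gstm5. A match describes the letters in the window and shows no binding.

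Estimated counts summed to between 65161064 and 118976013 per library in set 2, and the depth of set 1 is unknown, since its table holds only TPM (transcript levels scaled to a fixed total per sample). The tissue labels fitted the marker genes checked. The summed TPM of 8 hepatocyte markers was at least 2735 in every liver of either set, the 10 acinar markers summed to at least 73878 TPM in every pancreas, and 6 lung epithelial markers to at least 18227 TPM in every lung. Y-linked transcripts were detected in set 2 in mice 125, 137, 153 and control 168, and in set 1 in control liver 11 alone, so the set 2 controls are 1 library with and 1 without them. In bulk tissue, fewer cells of a type and less RNA per cell cannot be told apart. Replicates are separate mice by number, 7 of which gave both a liver and a pancreas in set 2.

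In the livers of set 2, the estrogen sulfotransferase gene Sult1e1 rose from near absence to a high level, and 10 members fell, among them 3 glucuronosyltransferase genes of the Ugt2b group and 4 Gst genes. By edgeR's quasi-likelihood test with Benjamini-Hochberg adjustment over 17365 genes at a threshold of 0.05, 1 of 59 members tested was higher, where 1.26% of all genes were, and 10 were lower, where 2.41% of all genes were. The median log2 fold change was -0.88 over the members and 0.21 over all genes. Of the tested members, 40 had a negative fold change.

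Sult1e1, which inactivates estrogens by sulfation, was at 0.379 TPM in control liver 45 and 0.0457 TPM in control liver 168, which rested on 33 and 4 counts. The A3B livers held 98.3 TPM in mouse 49, 172 in 153, 215 in 48, 246 in 137, 258 in 44 and 281 in 125. Every A3B liver lay far above both controls, and mouse 49 was the lowest of the 6. The mean was 0.212 ± 0.236 TPM (SD, n = 2) in controls and 212 ± 67.2 TPM (SD, n = 6) in A3B livers, with a log2 fold change of 9.68 (SE 0.99, edgeR adjusted p = 0.00371). Over the 13 alternative fits the log2 fold change lay between 7.39 and 11.58.

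Another gene of the same class, Sult1d1, chosen after its values were seen, which sulfates catecholamines and other small phenols, was at 64.2 and 29.3 TPM in the controls and between 216 and 449 TPM, with a median of 279, in the A3B livers. No A3B liver overlapped the controls, but its log2 fold change of 2.20 (SE 0.55) had an edgeR adjusted p of 0.0574. The most abundant Sult1 gene, Sult1a1, a general phenol sulfotransferase, was at 548 and 202 TPM in controls and at 233 to 728 TPM in A3B livers, and these ranges overlapped. Of 5 Sult1 genes tested, 1 was called. Among the other Sult genes, 1 of 12 tested was called: Sult2a8, a liver sulfotransferase that acts on bile acids, was at 314 and 584 TPM in controls and between 16.4 and 173 TPM, median 61.0, in A3B livers. Its log2 fold change was -3.02 (SE 0.70, edgeR adjusted p = 0.0469), and the call was lost in 6 of 8 fits that left out a library.

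**Figure D1:**
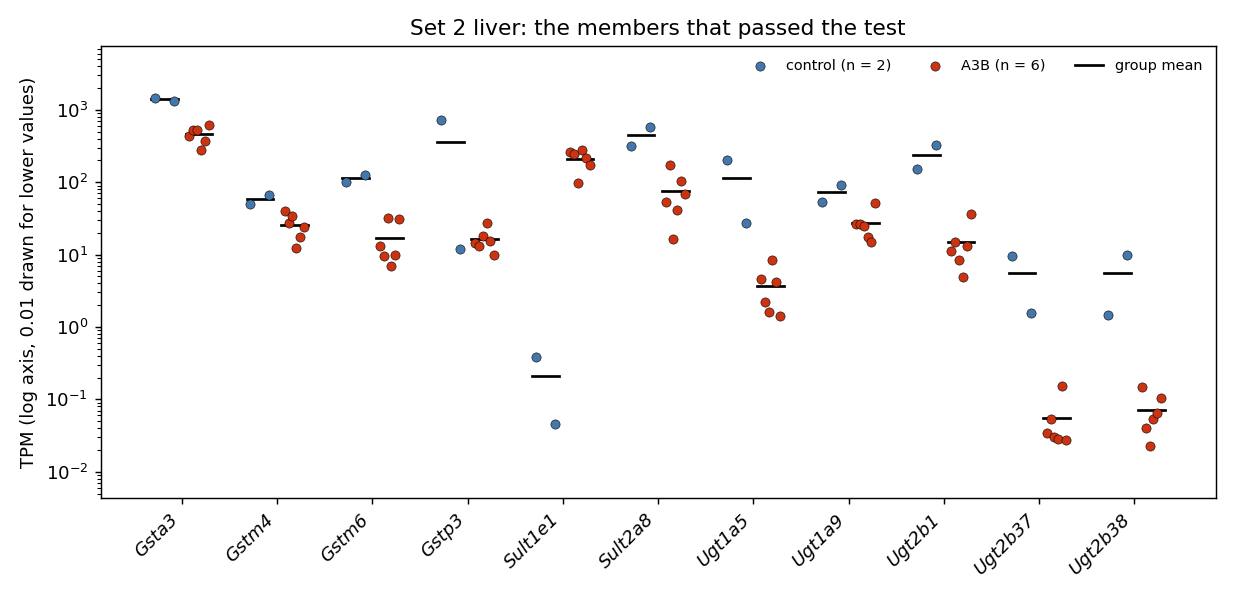
The 11 members that passed the test in set 2 liver, as TPM per sample on a log axis, with controls in blue, A3B livers in red and group means as black bars. Sult1e1 is the member that rose, from 0.212 to 212 TPM on average; the other 10 fell, and for Gstp3 control 168, at 12.1 TPM, lies among the A3B livers.

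Of the alpha class Gst genes, 1 of 4 was called. Gsta3, which detoxifies aflatoxin epoxide in mouse liver, fell: it was at 1455 and 1330 TPM in the controls, and in A3B livers at 278 in mouse 125, 369 in 48, 435 in 44, 529 in 49, 531 in 137 and 624 in 153. Every A3B liver was below both controls, and the log2 fold change was -2.0 (SE 0.35, edgeR adjusted p = 0.0201). Gsta1 and Gsta2, which were chosen after their values were seen, had positive fold changes that did not pass. Gsta2 was at 13.6 and 28.4 TPM in controls and between 54.6 and 313 TPM, median 149, in A3B livers, with no overlap, a log2 fold change of 2.58 (SE 0.61) and an edgeR adjusted p of 0.050003, just above the threshold. Gsta1 was at 0.768 and 3.39 TPM in controls and ranged from 3.65 in mouse 48 to 356 in mouse 49, so the spread among A3B livers was wide (log2 fold change 4.96, SE 1.89, edgeR adjusted p = 0.167). Of the 31-base words in its transcripts, 92.9% occur in another gene, mostly Gm3776, so counts of Gsta1 could have been divided between copies. For Gsta2 the share was 60.7%, mostly with Gsta1.

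The mu class genes tested, 7 of 7, included 2 that fell and none that rose. Gstm6 was at 102 and 126 TPM in controls and between 7.04 and 32.2 TPM, median 11.7, in A3B livers, and Gstm4 was at 49.5 and 66.7 TPM against 12.5 to 39.8 TPM, median 25.4. Both lay below the controls in every A3B liver, with log2 fold changes of -3.17 (SE 0.51, edgeR adjusted p = 0.0142) and -1.63 (SE 0.34, edgeR adjusted p = 0.0339). Gstm1, the most abundant mu gene, was at 1719 and 2408 TPM in controls and at 559 to 1663 TPM in A3B livers, and did not pass (edgeR adjusted p = 0.0628).

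Gstp1, a pi class gene, is known to be higher in the liver of male mice, and the 2 controls differed in Y-linked transcripts. Gstp3 was at 716.5 TPM in control 45 and at 12.1 TPM in control 168, against 9.78 to 27.6 TPM in A3B livers. It was called lower (log2 fold change -4.66, SE 0.87, edgeR adjusted p = 0.0247), and without control 45 the log2 fold change was -0.16 with an edgeR adjusted p of 0.943. Gstp1 was at 236 TPM in control 45 and 3189 TPM in control 168, and the A3B livers, at 485 to 1365 TPM, lay between them. Gstt1 and Gstz1, the most abundant theta and zeta genes, were at 278 to 505 and 731 to 840 TPM in controls and at 134 to 405 and 330 to 603 TPM in A3B livers. Neither of them passed (edgeR adjusted p = 0.162 and 0.0814). In set 1, control liver 11, which had Y-linked transcripts, held 2714 TPM of Gstp3 and 1805 TPM of Gstp1. Controls 91 and 92, which lacked them, held 3511.5 and 5770 TPM of Gstp3 and 724 and 619 TPM of Gstp1.

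Of the glucuronosyltransferase genes, 5 of 21 tested fell and none rose. Ugt2b1 was at 152 and 322 TPM in the controls, and in A3B livers at 4.83 in mouse 125, 8.55 in 49, 11.2 in 44, 13.0 in 48, 14.8 in 137 and 36.5 in 153. All 6 were below the lower control, and the log2 fold change was -4.41 (SE 0.62, edgeR adjusted p = 0.00851). Ugt2b37 and Ugt2b38 were low genes even in controls, at 9.73 and 1.57 TPM and at 1.49 and 9.77 TPM, with the higher value in a different control for each. A3B livers held at most 0.153 TPM of Ugt2b37 and 0.147 TPM of Ugt2b38, from 3 to 17 and 2 to 17 counts. Of their 31-base words 34.4% and 52.9% also occur in other genes, mostly in the abundant Ugt2b5, so these estimates are uncertain. Their log2 fold changes were -6.84 (SE 0.86, edgeR adjusted p = 0.00591) and -6.76 (SE 0.75, edgeR adjusted p = 0.00443).

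In the Ugt1a group, whose members have their own first exons and share the rest, Ugt1a5 was at 205 and 27.0 TPM in controls and at most 8.41 TPM in A3B livers (log2 fold change -5.20, SE 0.75, edgeR adjusted p = 0.00993), and lost its call without control 45 (-3.41, edgeR adjusted p = 0.113). Ugt1a9, which conjugates phenols and fatty acids, was at 53.7 and 93.1 TPM against 14.8 to 51.8 TPM, and all A3B livers were below both controls (log2 fold change -1.86, SE 0.41, edgeR adjusted p = 0.0387). Ugt1a1, the bilirubin glucuronosyltransferase, was at 533 and 334 TPM in controls and at 85.5 to 250 TPM in A3B livers, a difference that did not pass (log2 fold change -1.59, SE 0.44, edgeR adjusted p = 0.0763). The shares of 31-base words that also occur in other genes were 58.5% for Ugt1a1, 65.3% for Ugt1a5 and 67.8% for Ugt1a9, so their estimates are uncertain. Ugt2b5 and Ugt3a2, the most abundant members of their groups, did not pass either (edgeR adjusted p = 0.0637 and 0.0822).

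The calls in set 2 liver rest on 2 controls. Without control 45, 3 members passed (Sult1e1, Ugt2b1 and Ugt2b38), and without control 168, 5 did (Sult1e1, Gstp3, Ugt1a5, Ugt2b37 and Ugt2b38); DESeq2 called 6 higher, against 7.49% of all genes, and 17 lower, against 6.31%. Gstm4 and Ugt1a9 each lost the call in 5 of 8 fits that left out a library. They also lost it with library totals (edgeR adjusted p = 0.108 and 0.0602) and with limma on TPM (limma adjusted p = 0.0975 and 0.0689). Gstp3 lost its call with limma on TPM (limma adjusted p = 0.227). The summed hepatocyte markers were 137660 and 87370 TPM in controls 45 and 168 and 33113 to 79872 TPM in A3B livers. The adipocyte markers summed to 16.4 and 11.2 TPM against 27.1 to 256 TPM. Neither sum overlapped between the groups, and the part of these markers in the differences was not tested. Albumin alone was at 107810 and 54669 TPM in these controls and at 19353 to 44124 TPM in A3B livers. Apoa1, on the same hepatocyte list, was at 13551 and 14386 TPM against 8031 to 17763 TPM, with overlap. Of the 5 adipocyte markers, 3 were under 1 TPM in both controls and 2 in all A3B livers. A3B liver 49 had the lowest hepatocyte sum and the highest summed leukocyte markers, at 852 TPM against 15.6 to 139 TPM in the other A3B livers. It was also the lowest for Sult1e1 and the highest for Gsta1, and without it 20 members passed. Over all genes 1599 passed without it, against 636 in the main fit.

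The livers of set 1 were measured apart and tested with limma on log2(TPM + 1), so their fold changes understate those of low genes. In them 2 of 43 members tested rose, where 6.07% of all 11507 genes did, and 3 fell, where 1.86% of all genes did. Sult1e1 was at 0.0705, 0.209 and 1.33 TPM in the controls and at 40.5, 54.2 and 57.7 TPM in A3B livers 70, 28 and 23. No A3B liver overlapped the controls (log2 fold change 5.15, SE 0.38, limma adjusted p = 0.00559). Sult1d1 was at 49.6, 50.9 and 67.9 TPM in controls and at 160, 203 and 239 TPM in A3B livers, again without overlap (log2 fold change 1.82, SE 0.31, limma adjusted p = 0.0245).

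The 3 members that fell in set 1 were Gstm6, Gstm4 and Gsta3. Without the filter on low values none of these falls was kept and 1 of the rises was, where 54 of all genes passed. Of 6 fits that left out a library, Gstm6, Gstm4 and Sult1d1 each lost the call in 3 and Gsta3 in 4. Gstm6 was at 132, 152 and 272 TPM in controls and 14.5, 15.0 and 30.0 TPM in A3B livers (log2 fold change -3.17, SE 0.42, limma adjusted p = 0.0162). Gstm4 was at 201, 226 and 246 TPM against 36.3, 42.7 and 87.7 TPM (log2 fold change -2.10, SE 0.39, limma adjusted p = 0.0314). Gsta3 was at 407, 411 and 445 TPM against 69.0, 110 and 207 TPM (log2 fold change -1.84, SE 0.42, limma adjusted p = 0.0443). In each the A3B livers lay wholly below the controls, and A3B liver 70 was the nearest to them. Of the Ugt1a genes, Ugt1a1, Ugt1a2, Ugt1a5, Ugt1a6a, Ugt1a6b, Ugt1a7c and Ugt1a9, like Ugt2a2, were listed at 0 in every sample of this table and could not be compared. Among the most abundant genes of their families, Gstm1, at 1658 to 2107 TPM in controls and 516 to 1132 TPM in A3B livers, had a limma adjusted p of 0.058. Gstp3 was at 2714 to 5770 TPM against 83.4 to 2337 TPM and Sult2a8 at 116 to 254 TPM against 1.46 to 120 TPM (limma adjusted p = 0.086 and 0.110). Gstt2, Gstk1, Ugt2b36, Ugt3a2 and Sult1a1 did not pass either.

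In both sets together 43 members could be compared, and 40 of them had the same sign, against 77.3% of all 10884 genes tested in both. Of these 31 were negative and 9 positive in both. Of 8 members called in set 2 and tested in set 1, 8 had the same sign and 4 passed in both: Sult1e1, Gsta3, Gstm4 and Gstm6. The 3 members with opposite signs were Gstm3, Gstp2 and Gstt2. Without control 91 no member passed in set 1 (the adjusted p of Sult1e1 by limma was then 0.0567), and without A3B liver 70, 12 did. Over all genes 913 passed in the main fit, 1 without control 91 and 1330 without A3B liver 70. The summed hepatocyte markers were 5061 to 6073 TPM in the controls of this set and 2735 to 4726 TPM in A3B livers, and the adipocyte markers 25.2 to 27.9 TPM against 142 to 742 TPM, neither with overlap. A3B liver 28 was the lowest in the first and the highest in the second, and also had the highest summed leukocyte markers (1120 TPM). The part of these markers in the values was not tested. Of the 5 adipocyte markers, 3 were under 1 TPM in all controls of this set and 3 in all its A3B livers.

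**Figure D2:**
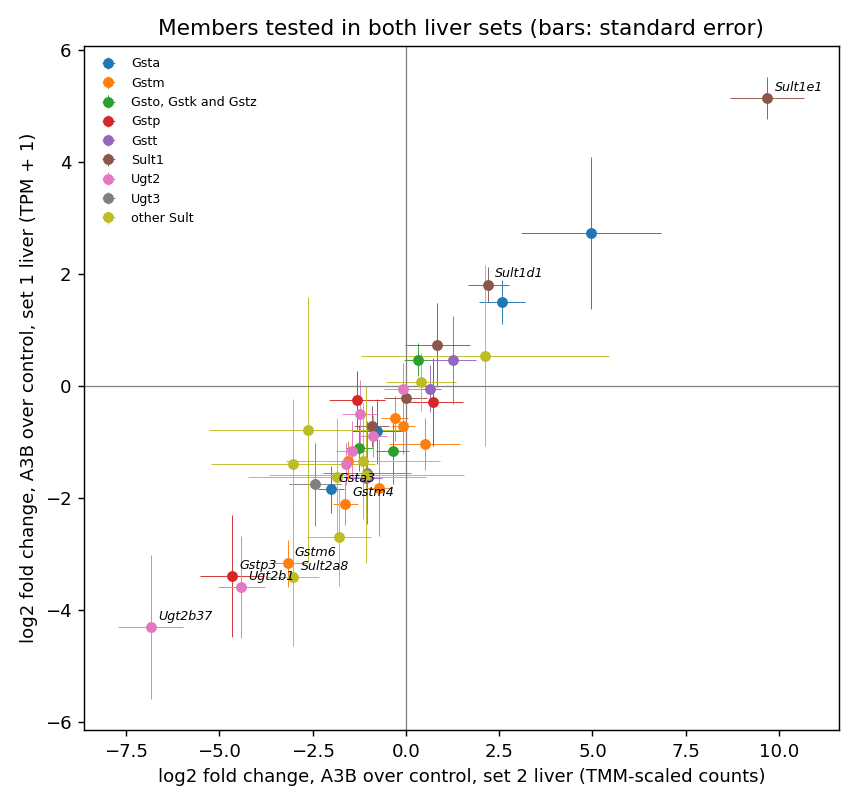
Log2 fold change of A3B over control in set 2 liver (horizontal, TMM-scaled counts) and in set 1 liver (vertical, log2 of TPM + 1) for the 43 members tested in both, coloured by family, with standard errors as bars and the called members named. Of them, 40 lie in the quadrants of equal sign, and Sult1e1 is farthest to the upper right.

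Some Sult2a genes differed in the livers with the Y-linked transcripts, which is given as a description since these genes were picked for it. Sult2a1, a hydroxysteroid sulfotransferase, was at 141 TPM in control 45 and at 30.5, 55.6 and 131 TPM in A3B livers 49, 44 and 48, which lacked Y-linked transcripts. It was at most 0.0387 TPM in the 4 livers with them. Sult2a5 had the same split, at 1.98 to 16.3 TPM in the livers without Y-linked transcripts and listed at 0 in the 4 with them, and Sult2a2 was at most 0.106 TPM in those 4. Within the livers without Y-linked transcripts, Sult2a2 was at 188 TPM in the control and 17.5 to 34.0 TPM in the A3B livers. Sult2a1 and Sult2a5 also lay below the control in these A3B livers, at 30.5 to 131 against 141 TPM and at 1.98 to 9.87 against 16.3 TPM. In the set 1 livers without Y-linked transcripts, Sult2a1 was at 53.9 and 104 TPM in the controls and 3.57 to 8.95 TPM in A3B livers, and Sult2a5 at 13.1 and 17.1 TPM against 0.414 to 2.47 TPM. With a single control on each side of set 2 no test within them was made. These genes share 51.1% to 74.5% of their 31-base words with other genes, so their single levels are uncertain. For Sult1e1 and Gsta3, with Y-linked transcripts as a covariate their log2 fold changes were 9.74 and -2.0 (edgeR adjusted p = 0.00573 and 0.0272). With the same covariate Sult2a8 and Gstp3 lost their calls in set 2 liver (edgeR adjusted p = 0.0643 and 0.0787), and in set 1 liver Gsta3 lost its call without control 11 (log2 fold change -1.87, limma adjusted p = 0.0656), the one library there with Y-linked transcripts, so that the covariate only takes this library out.

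**Figure D3:**
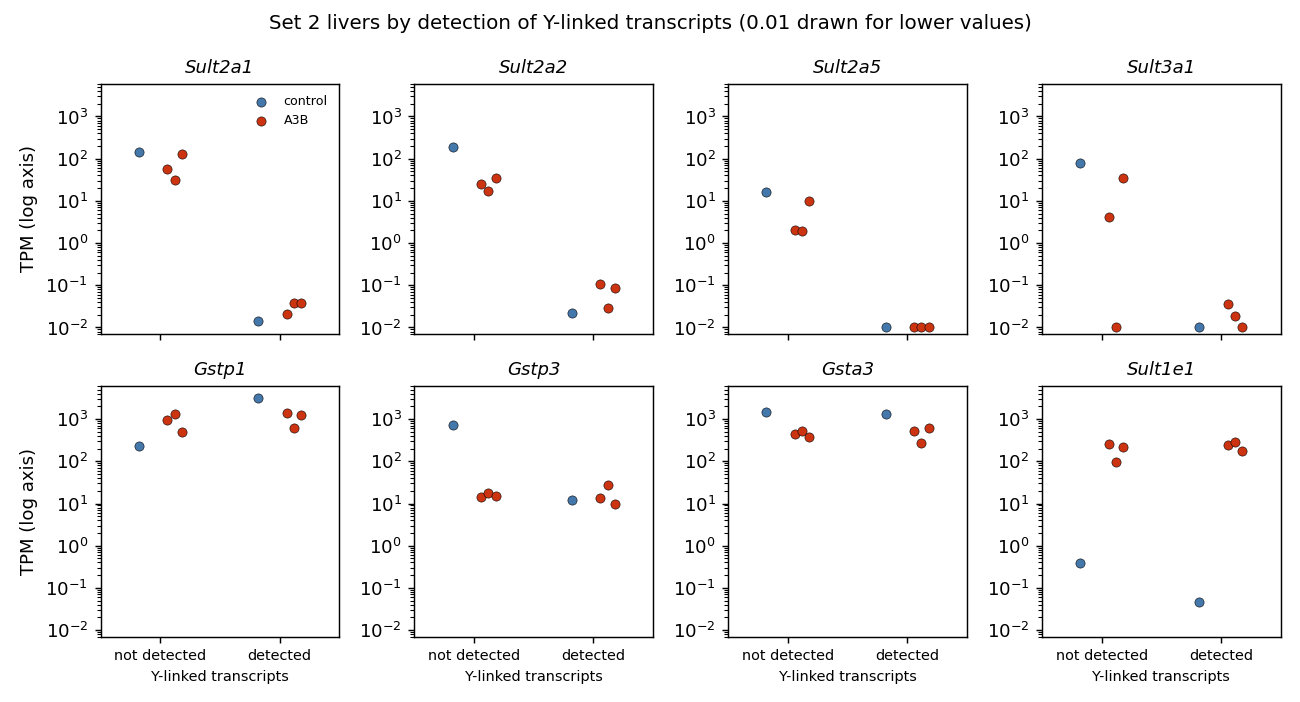
TPM of 8 members in set 2 livers on log axes, split by whether Y-linked transcripts were detected, with controls in blue and A3B livers in red. Sult2a1, Sult2a2 and Sult2a5 differ by the Y-linked split, and lie below the control in A3B livers without Y-linked transcripts, Gstp1 and Gstp3 differ between the 2 controls, and Sult1e1 and Gsta3 differ by A3B on both sides.

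In the pancreas the sign of 12 of the 51 members tested, and which members were called, depended on the scale, so both are given. Acinar cells fill the control pancreas with a few enzyme transcripts, and TMM scaling, which sets the bulk of genes equal, gave the controls factors of 0.210 and 0.443 against 1.30 to 1.79 in A3B pancreases. Over all genes the median log2 fold change was 0.09 with TMM and 2.29 with library totals, and the share of genes with a positive fold change was 53.2% and 94.2%. Changes are therefore described relative to the other genes of the pancreas (TMM), and TPM levels stand beside them. By limma on log2(TPM + 1), 95.7% of all genes tested had a positive fold change. A3B pancreases lay above both controls in TPM also for members with negative TMM-scaled log2 fold changes, such as Gstm2 (-0.59) and Gstt1 (-0.40). The summed acinar markers were 221140 and 240470 TPM in controls and 73878 to 191590 TPM in A3B pancreases. Ductal markers summed to 10.4 and 36.7 TPM in controls and to 253 to 625 TPM in A3B pancreases, fibroblast markers to 38.4 and 169 TPM against 954 to 1454 TPM, and leukocyte markers to 5.13 and 73.1 TPM against 142 to 421 TPM. Endocrine markers summed to 3413 and 3485 TPM in controls and to 3650 to 13267 TPM in A3B pancreases. None of these ranges overlapped, and their part in the values below was not tested.

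By edgeR with TMM, 9 of 51 members tested rose in the pancreas, where 17.0% of all 19123 genes did, and 7 fell, where 14.9% of all genes did, so both shares were near the background. With library totals 34 members were higher, where 70.5% of all genes were, and 1 was lower, where 1.10% were. The median log2 fold change of the members was 0.61 with TMM, or 0.26 with genes undetected in controls set at their bound.

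The alpha and mu class genes held 5 of the 9 rises. Gsta1 was at 0.167 and 0.832 TPM in controls and at 7.72 to 32.2 TPM, median 15.5, in A3B pancreases (log2 fold change 3.07, SE 0.61, edgeR adjusted p = 0.00412). Gsta2 was at 0.0631 and 0.127 TPM against 0.885 to 4.40 TPM (2.47, SE 0.69, edgeR adjusted p = 0.0201), and Gsta3 at 7.31 and 15.2 TPM against 81.7 to 148 TPM (0.89, SE 0.24, edgeR adjusted p = 0.0165). In all 3 every A3B pancreas was above both controls in TPM. Without control 45 or control 168 the calls of Gsta2 (edgeR adjusted p = 0.0725 and 0.0869) and Gsta3 (0.0521 and 0.0895) were lost.

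Gstm3 was at 0.102 and 0.474 TPM in controls, and in A3B pancreases at 12.4 in mouse 137, 13.6 in 53, 22.2 in 125, 31.7 in 44, 35.1 in 153 and 49.3 in 49. Every A3B pancreas was above both controls, and the TMM-scaled log2 fold change was 4.50 (SE 0.64, edgeR adjusted p = 0.000924). Gstm1 was at 24.0 and 37.3 TPM against 241 to 817 TPM (log2 fold change 2.06, SE 0.51, edgeR adjusted p = 0.012), and lost its call without control 168 (1.85, edgeR adjusted p = 0.0687). By contrast Gstm2, the most abundant mu gene in control pancreas, was at 40.1 and 42.0 TPM against 75.1 to 240 TPM, and its TMM-scaled log2 fold change of -0.59 did not pass (edgeR adjusted p = 0.302).

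The omega class genes, which reduce dehydroascorbate and arsenic compounds, both rose. Gsto1 was at 4.41 and 20.6 TPM in controls and at 140 to 208 TPM, median 173, in A3B pancreases (log2 fold change 1.90, SE 0.35, edgeR adjusted p = 0.00288). Gsto2 was near 0.24 TPM in both controls and at 2.18 to 5.99 TPM in A3B pancreases (1.65, SE 0.57, edgeR adjusted p = 0.0471), and lost its call without any of 6 single libraries.

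Ugt2b35 and Ugt1a9 were the glucuronosyltransferase genes that rose, of 15 tested. Ugt2b35 was at 0.209 and 0.762 TPM in controls and at 11.5 to 25.8 TPM, median 15.0, in A3B pancreases, without overlap (log2 fold change 2.97, SE 0.31, edgeR adjusted p = 0.000225). Ugt1a9 had no counts in either control and 22 to 105 counts in A3B pancreases, which is at least 4.27-fold higher with TMM, taking 3 counts per control library (edgeR adjusted p = 0.00458). Summed hepatocyte markers were 19.1 and 67.0 TPM in control pancreases and 102 to 939 TPM in A3B pancreases, highest in mouse 44, and their part in these rises was not tested. Ugt1a6a, Ugt2b34 and Ugt3a1, the most abundant genes of their groups in control pancreas, did not pass (edgeR adjusted p = 0.272, 0.204 and 0.255), nor did Gstp1, Sult1a1 and Sult5a1 (0.197, 0.851 and 0.930).

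The 7 members that fell with TMM were Gstz1, Gstk1, Gstt2, Gstt3, Gstp2, Sult1b1 and Sult1c2. Sult1c2, a sulfotransferase, is the one that was also lower with library totals: it was at 2.57 and 3.66 TPM in controls and at 0.415 to 1.76 TPM in A3B pancreases, with no overlap (log2 fold change -3.84 with TMM, SE 0.44, edgeR adjusted p = 0.000308, and -1.52 with library totals, adjusted p = 0.023). Gstz1, which also breaks down tyrosine metabolites, was at 11.3 and 33.7 TPM in controls and 16.2 to 35.3 TPM in A3B pancreases, so the TPM ranges overlapped (log2 fold change -2.27 with TMM, SE 0.19, edgeR adjusted p = 0.000104, and -0.10 with library totals). Gstk1, a mitochondrial and peroxisomal transferase, was at 6.0 and 12.1 TPM against 11.3 to 14.9 TPM (log2 fold change -1.66 with TMM, edgeR adjusted p = 0.000606, and 0.55 with library totals).

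Gstt2 and Gstt3 changed sign with the scale, and passed on either. In TPM every A3B pancreas was above both controls, Gstt2 at 49.1 to 95.8 against 18.5 and 38.7 TPM. With TMM the log2 fold changes were -0.76 and -0.77 (edgeR adjusted p = 0.0101 and 0.045), and with library totals they were 1.47 and 1.56 (adjusted p = 0.00197 and 0.000679). With TMM Gstt3 lost its call in 6 of 8 fits that left out a library and Gstt2 in 1. Without control 45 neither passed (Gstt3 at -0.29 and Gstt2 at -0.64, edgeR adjusted p = 0.525 and 0.0818), and Gstt3 was lost also with the Y-linked covariate (edgeR adjusted p = 0.0524). Gstp2 was likewise lower with TMM (log2 fold change -1.69, edgeR adjusted p = 0.0306) and not lower with library totals (0.58), and its call was lost in 4 of 8 fits that left out a library. Sult1b1 was at 0.0223 TPM in control 45 and 7.93 TPM in control 168, with A3B pancreases at 0.374 to 0.999 TPM between them. Its fall (log2 fold change -4.10, edgeR adjusted p = 0.013) rested on control 168, without which the log2 fold change was 2.21.

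**Figure D4:**
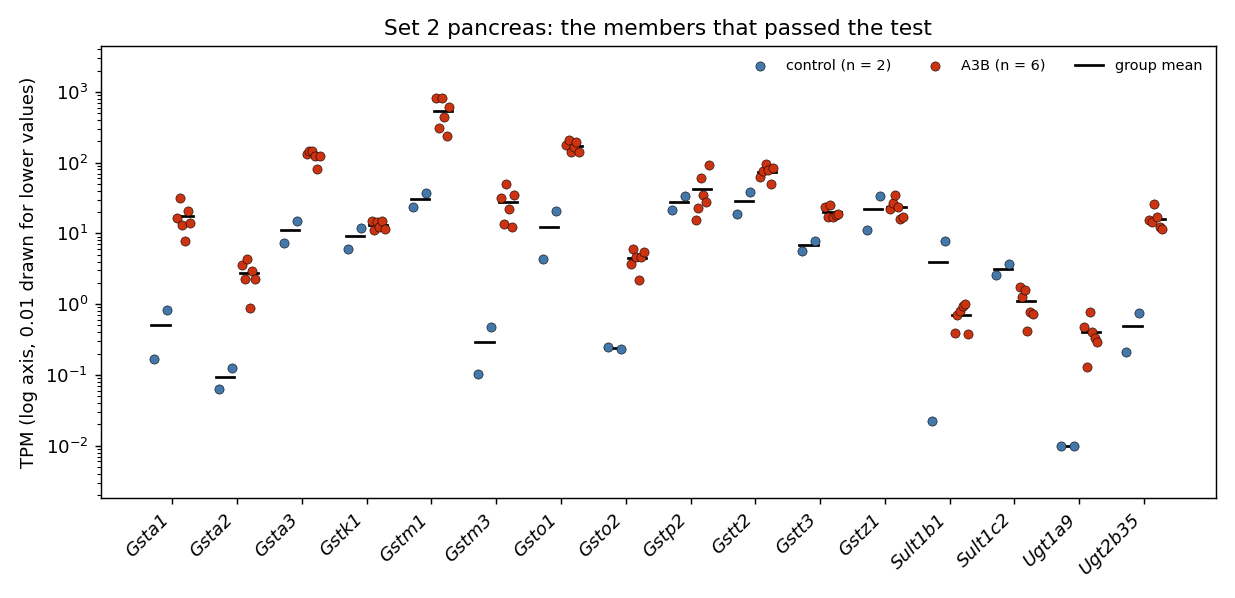
The 16 members that passed the TMM-scaled test in set 2 pancreas, as TPM per sample on a log axis, with controls in blue, A3B pancreases in red and group means as black bars. In TPM all called members except Gstk1, Gstp2, Gstz1, Sult1b1 and Sult1c2 lie wholly above the controls, including Gstt2 and Gstt3, which were lower with TMM.

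The A3B difference was compared between pancreas and liver over all 16 set 2 samples by an interaction term in edgeR. Of 61 members tested, 12 had a more positive A3B difference in the pancreas, where 6.87% of all 19908 genes had one, and 3 a more negative one, where 5.03% had. Gsta3, called lower in liver and higher in pancreas, had an interaction of 3.06 on the log2 scale (SE 0.47, edgeR adjusted p = 0.00207). For Gstm1 it was 3.79 (SE 0.71, edgeR adjusted p = 0.00597), for Gstm6 3.48 (SE 0.79, edgeR adjusted p = 0.0131) and for Ugt2b35 3.22 (SE 0.63, edgeR adjusted p = 0.00717). Of 16 fits that left out a library, Gstm6 lost its call in 3 and Ugt2b35 in 2, each time without a control, and Gsta3 and Gstm1 in none. Sult1e1 went the other way, at -10.03 (SE 1.48, edgeR adjusted p = 0.00184), and lost its call without control pancreas 168 (-7.09, edgeR adjusted p = 0.143). In the pancreas it was at 0.0217 and 0.639 TPM in controls and 0.194 to 2.28 TPM in A3B mice, and these ranges overlapped. With library totals the interaction counts were 28, where 39.4% of all genes were called more positive, and 1, where 1.12% were called more negative. Since 7 mice gave both tissues, the mouse was also fitted as a replicate block, and 11 of the 15 calls were kept: those of Gsto1, Gstp3, Gstt2 and Ugt2b37 were lost (edgeR adjusted p = 0.0563, 0.104, 0.0711 and 0.0686). Ugt2b37 was near 0 in the pancreas of both groups, with 17, 5, 0, 0, 0 and 0 counts in A3B mice and none in controls, so its call rests on the liver. The interaction of Gstp3 rests on control liver 45, without which it was 1.33 (edgeR adjusted p = 0.423).

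The lungs of set 1 showed small differences in a few members. By limma on log2(TPM + 1), 2 of 31 members tested rose, where 16.1% of all 13651 genes did, and 4 fell, where 20.8% of all genes did. Sult1d1 was at 5.32, 9.04 and 11.7 TPM in control lungs 91, 88 and 87 and at 18.8, 19.9 and 25.6 TPM in A3B lungs 69, 74 and 70, without overlap (log2 fold change 1.26, SE 0.26, limma adjusted p = 0.0136). It was called higher in lung and in the liver of set 1, which share control mouse 91 and A3B mouse 70. Sult5a1 was at 7.59 to 8.93 TPM in controls and 9.80 to 14.0 TPM in A3B lungs (0.45, SE 0.14, limma adjusted p = 0.0453), and lost its call when any of 5 single libraries was left out.

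Theta and mu class genes made up the 4 falls in lung. Gstt1 was at 62.8, 66.4 and 68.0 TPM in controls and 39.4, 46.6 and 46.8 TPM in A3B lungs (log2 fold change -0.56, SE 0.10, limma adjusted p = 0.00857). Gstm5 was at 27.4 to 36.3 TPM against 14.3 to 20.1 TPM (-0.86, SE 0.16, limma adjusted p = 0.00878) and Gstm2 at 364 to 422 TPM against 260 to 283 TPM (-0.50, SE 0.10, limma adjusted p = 0.00977). Gstt2 was at 130 to 140 TPM against 101 to 109 TPM (-0.38, SE 0.08, limma adjusted p = 0.0146). It lost its call without A3B lung 69 (-0.36, limma adjusted p = 0.058). In all 4 the A3B lungs lay below every control lung. Gstm1, Gstp1, Gsta3, Gstk1, Ugt2b36 and Sult1a1, the most abundant tested genes of their groups in control lung, did not pass. Albumin RNA differed widely among the lungs, from 0.331 to 245 TPM in controls and from 3.83 to 216 TPM in A3B lungs, and its part in the Ugt2 values of lung was not tested.

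**Figure D5:**
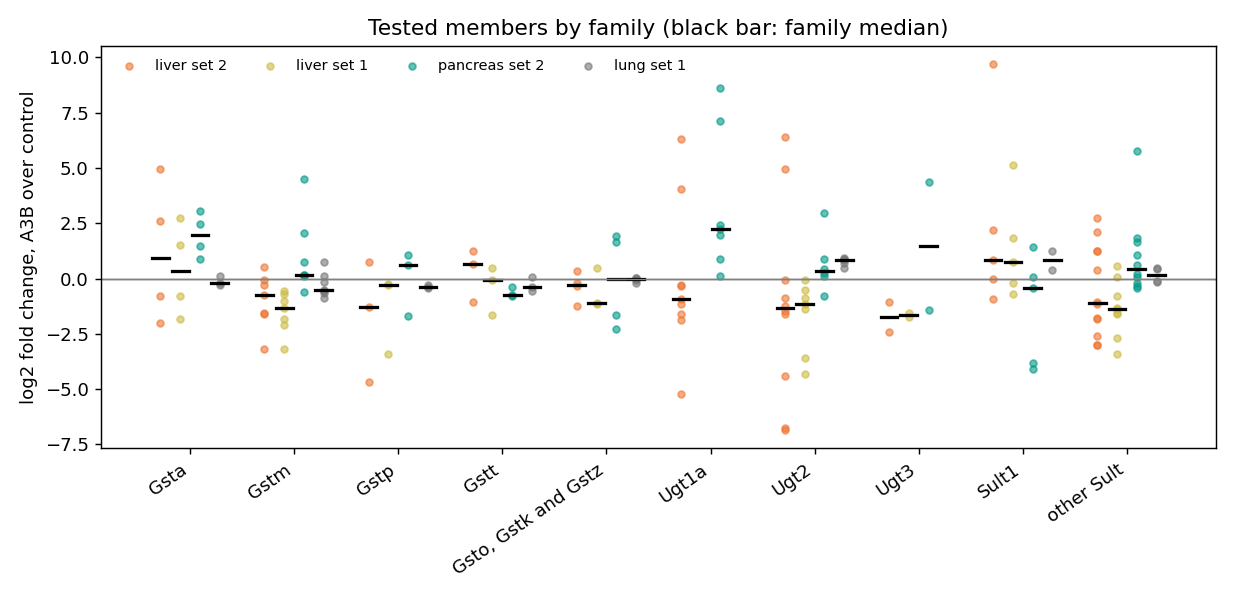
Log2 fold change of A3B over control for each tested member, by family, in the 4 comparisons, with the family median as a black bar (TMM-scaled counts in set 2, log2 of TPM + 1 in set 1). In set 2 the Ugt2 median is -1.35 in liver and 0.34 in pancreas; pancreas values would lie higher with library totals.

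Genes that supply or accompany conjugation were also counted from lists written from general knowledge. In set 2 liver none of 7 glutathione supply genes, 5 UDP-glucuronate supply genes, 7 sulfate donor genes, 11 regulators or 5 efflux pumps passed by edgeR, and 2, 1, 3, 3 and 0 of them had an unadjusted p under 0.05, where 22.9% of all genes had one. Among other conjugation and detoxification genes, those that fell included Glyat, the glycine conjugating enzyme (log2 fold change -1.98, edgeR adjusted p = 0.0204), Inmt (-4.56, adjusted p = 0.0357) and the microsomal transferase Mgst1 (-2.11, adjusted p = 0.0395). The carbonyl reductase gene Cbr1 rose (1.98, adjusted p = 0.0399). Glyat also fell in set 1 liver (-2.18, limma adjusted p = 0.0277).

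In the pancreas, where with TMM 17.0% of all genes rose and 14.9% fell, 4 of 7 glutathione supply genes rose and 3 fell. Of 5 UDP-glucuronate supply genes 2 fell, and of 7 sulfate donor genes 1 rose and 2 fell. With library totals, where 70.5% of all genes were higher, 4, 5 and 6 genes of these lists were higher and none was lower, as were 10 regulators and 5 efflux pumps. The values that follow are with TMM. Gclc, the catalytic subunit of the limiting enzyme of glutathione synthesis, rose by 3.07 on the log2 scale (edgeR adjusted p = 0.000248), with Gsr (1.87), Gss (0.92) and Gclm (0.64), while Cth (-2.52), Cbs (-2.26) and Ggt1 (-2.09), of cysteine supply and glutathione breakdown, fell. Of 11 regulators, 6 rose, including Nfe2l2 (1.58, edgeR adjusted p = 0.00149), Keap1 (1.09, adjusted p = 0.00694) and Ahr (1.53, adjusted p = 0.00667), and Nr1i3, the gene of CAR, fell (-1.97, adjusted p = 0.0463). Of 15 other conjugation and detoxification genes tested, 2 rose, Mgst1 (1.32, edgeR adjusted p = 0.0116) and Ephx1 (0.76, adjusted p = 0.0489), and Mgst2 fell (-3.18, adjusted p = 0.0382), while 10 were higher and none lower with library totals. Of 5 efflux pumps, 3 rose: Abcc3 (1.71), Abcc4 (1.26) and Abcc1 (0.91). In lung, where 16.1% of all genes rose and 20.8% fell, 7 of 11 other conjugation and detoxification genes tested fell and none rose, among them As3mt (log2 fold change -0.61, limma adjusted p = 0.0065) and Inmt (-0.64, limma adjusted p = 0.00897). Of 7 glutathione supply genes 2 rose, of 5 UDP-glucuronate supply genes 1 rose and 2 fell, of 6 sulfate donor genes 3 rose and 1 fell, and of 9 regulators and 5 efflux pumps 2 each rose. Those that rose included Gclc (1.23, limma adjusted p = 0.00511), Gsr (0.53, limma adjusted p = 0.00872) and Nfe2l2 (0.46, limma adjusted p = 0.0444).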

How the data were processed

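Total RNA of mouse liver, pancreas and lung was sequenced by the authors. For set 2 the authors deposited kallisto estimated counts and TPM per transcript (mm10), and for set 1 the authors deposited TPM per gene from a read-count matrix. Gene symbols came from GENCODE M21: 116640 of 119414 transcripts matched, and 2774 did not and were left out (0.23% to 1.47% of the counts of a library). Estimated counts were added up by gene, then rounded.

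Set 2 was tested with edgeR 4.0.16 (filterByExpr, TMM, robust quasi-likelihood F test) and set 1 with limma 3.58.1 (trend, robust) on log2(TPM + 1) for genes averaging 1 TPM or more, in R 4.3.3. P-values were adjusted by Benjamini-Hochberg over all genes at 0.05. DESeq2 1.42.0, library totals, no filter, TPM with limma, Y-linked transcripts as a covariate, a replicate block, a pseudocount of 0.1 and leaving out libraries were alternatives. The tests were also run on simulated data with a smaller spread than that of the set 2 livers. Those runs therefore do not show how many changes the tests recover in these data. The text names every member with an adjusted p under 0.05, the most abundant member of each family in controls, and examples of list genes that passed. Members and lists were chosen with earlier results of these data known. A result for 1 gene of the lists is not reported here.

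Pairing comes from the mouse numbers in the titles: 7 mice gave both tissues, and the deviations of their liver and pancreas from the group means correlated at -0.023 to 0.391 across genes, which are not replicates. P-values measure the spread between mice. Figures were drawn with matplotlib 3.10.9.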

Additional observations from a re-analysis of the deposited data

Results flagged for a closer look

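The A3B difference differed between pancreas and liver by the interaction test in edgeR for 15 members, and the values are log2 differences, pancreas minus liver. They were more positive in the pancreas for Gsta3 (3.06), Gstm1 (3.79), Gstm3 (4.17), Gstm4 (2.54), Gstm6 (3.48), Gsto1 (1.74), Gstp3 (5.93), Ugt2b34 (2.04) and Ugt2b35 (3.22). They were also more positive for Ugt1a5 (7.48), Ugt1a9 (10.45) and Ugt2b37 (11.51), where the pancreas controls hold few or no counts and the fitted size depends on the prior count. Ugt2b37 is near 0 in A3B pancreases too, so its value rests on the liver and shows no rise in the pancreas. They were more negative for Gstt2 (-1.23), Sult1c2 (-4.49) and Sult1e1 (-10.03). For Gstt2 the sign turned with library totals (0.39). With the mouse as a replicate block, Gsto1, Gstp3, Gstt2 and Ugt2b37 no longer passed. Without control liver 45, Gstp3 was at 1.33 (edgeR adjusted p = 0.423), and of 16 fits that left out a library, Gstm3 and Ugt2b37 lost the call in 10, Gsto1 in 7, Ugt2b34 and Gstt2 in 4, Gstm6, Gstp3 and Sult1c2 in 3, Gstm4, Ugt1a5 and Ugt2b35 in 2 and Sult1e1 in 1, while Gsta3, Gstm1 and Ugt1a9 lost it in none.

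Among the A3B samples of set 2, 4 of 27 groups tested held a sample far from the other 5. The groups are genes measured in the same mice, so they are not independent and their number is not compared with chance. A3B liver 153 was highest for Ugt1a9 (51.8 TPM) and for Ugt2b1 (36.5 TPM). A3B liver 48 was highest for Ugt2b37 (0.153 TPM, from 17 counts) and A3B pancreas 137 was lowest for Gsta3 (81.7 TPM).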

How the results depend on the processing

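All counts are members passing at 0.05 unless all genes are named. The number of calls over all genes moved as well. In set 2 liver 636 of all genes passed, 1599 without A3B 49, 1123 without A3B 48, 216 without A3B 44 and 178 without A3B 137. In set 1 liver 913 of all genes passed, 1 without control 91 and 1330 without A3B 70. In set 2 liver, 11 passed, and 23 did with DESeq2. In set 2 pancreas, 16 passed, against 35 with library totals and 29 with limma on log2(TPM + 1). Without A3B pancreases 44 and 137, labelled with the A3B transgene alone, 12 of the 16 passed, 7 higher and 5 lower. Over all genes 4370 passed in that fit, against 6093 in the main fit. In set 1 liver, 5 passed, against 1 without a filter on low values and 9 with the Y-linked covariate, which there only takes out control 11. For the interaction, 15 passed, 29 with library totals and 11 with the mouse as a replicate block, which kept 11 of the 15. In set 1 lung, 6 passed, 2 higher and 4 lower, against 1 higher and 5 lower without a filter. Leaving out single libraries gave 3 to 20 in set 2 liver (3 without control 45, 5 without control 168, 6 without A3B 137, 7 without A3B 44, 17 without A3B 48, 20 without A3B 49), 11 to 16 in pancreas and 5 to 7 in lung. It gave 0 to 12 in set 1 liver (0 without control 91, 1 without control 92 or A3B 23, 9 without control 11, 12 without A3B 70) and 6 to 18 for the interaction (6 without control liver 168 or control pancreas 45, 9 without control liver 45). In the pancreas, log2 fold changes changed sign with library totals for Gstk1 (0.55), Gstp2 (0.58), Gstt2 (1.47) and Gstt3 (1.56), and with limma on TPM for Gstk1 (0.56), Gstp2 (0.39), Gstt2 (1.40), Gstt3 (1.44) and Gstz1 (0.21). The interaction of Gstt2 became 0.39 with library totals. Leaving out 1 pancreas gave Sult1b1 values of -5.07 (without control 45) to 2.21 (without control 168). The scalings set different genes equal; other causes were not tested. Sult1e1 and Ugt2b38 passed in set 2 liver under all 13 alternatives. Of the values of called genes under alternatives, 581 kept direction and call, 152 lost the call and 11 changed sign. The Y-linked covariate could not be fitted in lung, where no library had those transcripts. The list counts of the pancreas with library totals were added after seeing the data.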

Other observations

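Summed over all members, TPM was 11593 ± 1597 (SD, n = 2) in control livers of set 2 and 7180 ± 1222 (SD, n = 6) in A3B livers, and the ranges, 10464 to 12722 and 5565 to 8791 TPM, did not overlap. In set 1 livers the sums were 12723 ± 1717 (SD, n = 3) in controls and 6041 ± 2514 (SD, n = 3) in A3B mice, again without overlap. The sums of the Sult1 genes lay the other way, at 240 ± 49.2 (SD, n = 3) and 455 ± 162 (SD, n = 3) TPM in set 1 and at 253 and 641 TPM in the set 2 controls against 641 to 1233 TPM in A3B livers. These sums were not tested.

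Ugt2a2, a glucuronosyltransferase gene best known from the nasal epithelium, was at 0.11 and 0.40 TPM in the control livers of set 2 and at 5.76 to 23.2 TPM in A3B livers other than mouse 49, which held 0.07 TPM (log2 fold change 4.94, SE 1.69, edgeR adjusted p = 0.127). It shares 93.7% of its 31-base words with other genes, 68.8% with Ugt2a1, so its level is uncertain. It was listed at 0 in every set 1 sample, so those livers offer no check, and it was chosen after its values were seen.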
